A study of Mus musculus with 6 samples.

Results

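The splicing regulators described here are the SR proteins, the hnRNPs and a group of factors and kinases that tune splice site choice. They were taken by symbol, as every probe set that the platform annotation gives a single symbol on a list of 42 genes. Of these, 40 genes had such a probe set, out of 18193 genes named in this way on the array. Srsf7 had none, and Hnrnpa3 was found only on 4 probe sets that also name another gene, so neither was described. The 40 genes were covered by 159 probe sets, and 129 of these were expressed. Expressed means here a mean log2 intensity over all arrays (A) above 5. Every one of the 40 genes had at least 1 expressed probe set. The other 30 probe sets had A of 5 or less, and 7 of them stood at a single value on all 6 arrays. No member lies on the segment of chromosome 16 that Ts1Cje mice carry in 3 copies.

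RNA came from neurospheres, floating colonies of neural stem cells and progenitors, grown for 7 days from cells of the lateral ventricle walls of female mice aged 84 days. The groups were 3 cultures from Ts1Cje mice on a C57BL/6 background and 3 from disomic C57BL/6 littermates, each hybridised to its own Affymetrix mouse whole-genome array. Ts1Cje is a mouse model of Down syndrome that carries an extra copy of the distal part of chromosome 16, translocated to chromosome 12, with a non-functional copy of Sod1 at its edge. The comparison asks how this trisomy shifts gene expression in adult neural progenitors, given as M, the log2 difference in mean signal with Ts1Cje taken over disomic, so that a negative M is lower in Ts1Cje.

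Pre-mRNA splicing is steered by proteins that bind short motifs in exons and introns. SR proteins, named for a domain rich in serine and arginine, mostly favour the use of nearby splice sites, hnRNPs often oppose them, and kinases of the Clk family control SR proteins by phosphorylation. Many of these genes make several transcript forms, some of them ending in decay through exons that carry a stop codon, so that probe sets of the same gene can read different transcripts. In neural tissue the balance between Ptbp1 and Ptbp2, and the Mbnl, Celf, Rbfox and Qk proteins, are known for setting cell type specific splicing.

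Of the neural stem cell and astrocyte markers, 7 of 8 measured were expressed. Gfap was just under the limit by its mean (A = 4.87), but its arrays ran from 2.37 to 6.36. The astrocyte channel gene Aqp4 was higher on all Ts1Cje arrays (M = 0.81, moderated t = 3.47). The other expressed markers of this list had overlapping groups and M between -0.03 and 0.14, and the list median was 0.04. Oligodendrocyte markers were present too, with 3 of 4 measured expressed (Cnp, Mbp and Sox10, all with overlapping groups) and Mog at the floor. Of the neuroblast and neuron markers, Map2 alone was expressed, and Dcx, Stmn2 and Rbfox3 stood at or next to the lowest value of the arrays, 2.23. No marker of microglia, vascular cells or ependymal cells was expressed. Markers of proliferating cells were lower in Ts1Cje, with all 9 of those measured below 0, against 46.1% of all expressed genes, and a median M of -0.55. On 5 of the 9 all Ts1Cje arrays lay below all disomic arrays, against 5.16% of all expressed genes. The controls for RNA quality also separated the genotypes. The actin signal at the 3′ end minus that at the 5′ end lay between 1.53 and 1.83 on the disomic and between 1.87 and 2.26 on the Ts1Cje arrays. The Gapdh difference was also higher on every Ts1Cje array, but barely, with 2.09 to 2.28 on the disomic and 2.29 to 2.44 on the Ts1Cje arrays. The 18S ribosomal RNA signal ran from 10.24 to 11.74 on the disomic and from 11.97 to 12.36 on the Ts1Cje arrays. The part of these markers and controls in the results below was not tested. In such bulk cultures, fewer cells of a type and less RNA per cell cannot be told apart.

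Most splicing regulators stood slightly lower in Ts1Cje neurospheres, and few did so beyond their error. By the brightest expressed probe set of each gene, 30 of the 40 genes (75.0%) had an M below 0, against 46.1% of all 8947 expressed genes, and the median M was -0.09, against 0.02. On 4 of the 40 genes (Srsf1, Srsf3, Hnrnpm and Hnrnph2) all Ts1Cje arrays lay below all disomic arrays, against 5.16% of all expressed genes. On none of the 40 did they lie above, against 6.12%. Over all 129 expressed probe sets the median M was -0.17, with a range from -1.21 to 0.54. Of these, 99 (76.7%) had an M below 0, against 48.4% of all expressed probe sets, and 13 had an M below -0.58, against 2.53%. A moderated t past 4 in limma was reached by 4 probe sets with lower signal (3.1%, against 0.812% of all expressed probe sets) and by 1 with higher signal (0.775%, against 0.965%). The lower ones were of Hnrnpf, Hnrnpa1 and, on a pair of probe sets, Rbm39, and the higher one was of Mbnl2. All Ts1Cje arrays lay below all disomic arrays on 21 probe sets (16.3%), against a background of 5.21%, and above them on 2 (1.55%), against 5.53%. Without Rbm39, 15 of 118 (12.7%) lay below, 7 had an M below -0.58 and 2 (1.69%) had a moderated t below -4. These probe sets are not independent, since several belong to the same gene. Nor are the 40 genes, which were read on the same 6 arrays. Their mean deviation from their own means overlapped between the genotypes. It was 0.004, -0.005 and 0.18 on the disomic arrays and 0.065, -0.046 and -0.20 on the Ts1Cje arrays. With single arrays left out, the 30 genes below 0 ranged from 22 to 34.
None of the 129 probe sets passed an adjusted p of 0.05 in limma, which 0.00222% of all probe sets did. In the same fit, 14 of the 129 with lower and 1 with higher signal had an unadjusted p under 0.05. Over all expressed probe sets these shares were 2.88% and 3.3%. The count of 4 rests on single arrays. It was 15 without Ts1Cje replicate 1, a fit in which 2.79% of all expressed probe sets were called lower, and 8 without disomic replicate 2 (1.18% of all). It was 1 without Ts1Cje replicate 2 (1.04%) or Ts1Cje replicate 3 (0.898%). The count of 1 higher was 4 without disomic replicate 3 (2.04% of all) and 0 without disomic replicate 1, disomic replicate 2, Ts1Cje replicate 2 or Ts1Cje replicate 3 (1.47% to 1.56%).

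**Figure D1:**
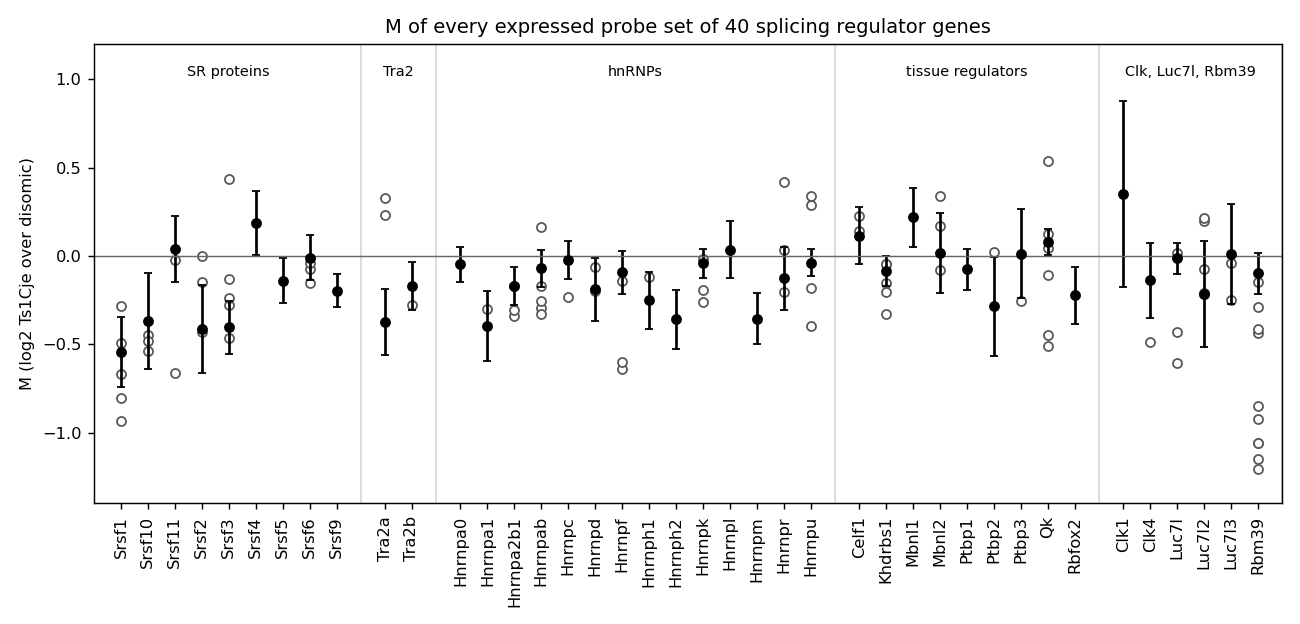
M (log2 Ts1Cje over disomic, y axis) of the 129 expressed probe sets of 40 genes, by class. Filled points with bars are the brightest probe set of each gene and its standard error from 3 arrays per genotype, open circles the other probe sets, and the open circles of Rbm39 reach down to -1.21 while its filled point is at -0.10.

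Among the SR proteins, Srsf1, Srsf2, Srsf3 and Srsf10 had the lowest values, while Srsf4 and Srsf11 were above 0 by their brightest probe sets. Of the 30 expressed probe sets of 9 SR genes, 26 had an M below 0, none had a moderated t past 4, and all Ts1Cje arrays lay below all disomic arrays on 6 (20.0%, against 5.21% of all expressed probe sets). The median M over the 9 genes was -0.20. Srsf1, the founding SR protein, which acts in both constitutive and alternative splicing, had log2 intensities of 13.29, 13.28 and 13.50 on the disomic arrays and 13.11, 12.89 and 12.45 on the Ts1Cje arrays. The groups did not overlap, with Ts1Cje replicate 3 the lowest, and M was -0.54 with a standard error of 0.20 (moderated t = -2.73). All 6 expressed probe sets of Srsf1 were below 0, from -0.94 to -0.28, and on 3 of them the groups did not overlap. Without Ts1Cje replicate 3 the M of the brightest was -0.36.
Srsf3, the smallest of the SR proteins and a factor that also acts in mRNA export, gave 12.88, 13.08 and 13.03 on the disomic arrays against 12.86, 12.54 and 12.37 on the Ts1Cje arrays. M was -0.40 with a standard error of 0.15. Ts1Cje replicate 1 lay just under the lowest disomic array, and without it the moderated t was -5.70. The dimmest expressed probe set of Srsf3 had M = 0.44 with overlapping groups. Srsf2, which binds exonic enhancers and has a role in transcription as well, had 11.11, 11.11 and 10.91 on the disomic arrays and 11.08, 10.59 and 10.22 on the Ts1Cje arrays, with M = -0.41 (standard error 0.25) and overlapping groups. It had M = -0.64 with a moderated t of -4.06 without Ts1Cje replicate 1, and M = -0.21 without Ts1Cje replicate 3. Srsf9 had 11.44, 11.29 and 11.26 on the disomic arrays and 11.28, 11.02 and 11.10 on the Ts1Cje arrays, with M = -0.20 (standard error 0.09) and again Ts1Cje replicate 1 inside the disomic range.
Srsf10, a regulator that represses splicing when it is dephosphorylated, had 4 expressed probe sets between -0.54 and -0.37, on none of which the groups separated. Srsf11 was split. Its 2 brightest probe sets had M = 0.04 and M = -0.02, while the third gave 10.04, 10.70 and 10.65 on the disomic arrays and 9.98, 9.82 and 9.60 on the Ts1Cje arrays, with M = -0.66 and no overlap. Srsf4 had M = 0.19, Srsf5 M = -0.14, and the 4 probe sets of Srsf6 lay between -0.15 and -0.01.

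The SR-like Tra2 proteins, which bind purine-rich exonic enhancers, were not separated between the genotypes. The brightest probe set of Tra2a had 11.82, 12.32 and 12.22 on the disomic arrays and 11.99, 11.66 and 11.60 on the Ts1Cje arrays (M = -0.37, standard error 0.19), while its other expressed probe sets had M = 0.33 and M = 0.23. Tra2b had 13.21, 13.24 and 13.11 on the disomic arrays and 13.26, 13.01 and 12.78 on the Ts1Cje arrays by its brightest probe set (M = -0.17), and M = -0.28 by the other. Ts1Cje replicate 1 was the highest array of Tra2b and Ts1Cje replicate 3 the lowest, and M was -0.29 without the former and -0.055 without the latter.

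The hnRNPs were lower in sign almost throughout, with 13 of 14 genes and 34 of 40 probe sets below 0, and the gene median M was -0.11. The exception by brightest probe set was Hnrnpl, with M = 0.03. A moderated t past 4 was reached by Hnrnpf and Hnrnpa1, each on 1 probe set (5.0% of the 40, against 0.812% of all), and on 6 (15.0%, against 5.21%) all Ts1Cje arrays lay below all disomic arrays. Hnrnpf, a binder of G-rich tracts, had 12.10, 11.79 and 11.82 on the disomic arrays and 11.46, 11.26 and 11.08 on the Ts1Cje arrays with this probe set, 1450963_at. The 3 Ts1Cje arrays were all lower, by an M of -0.64 (standard error 0.14, fold change 0.643, moderated t = -4.49). A further probe set of Hnrnpf, 1423382_a_at, had M = -0.60 without overlap, but the brightest, 1456664_x_at, had M = -0.09 and the remaining one M = -0.14, both with overlapping groups. The _x in the names of these last 2 marks a design that can also bind related sequences.
Hnrnpa1, a repressor of exon inclusion and a much studied hnRNP, had on 1455305_x_at, which is also of the _x design, 10.15, 9.92 and 10.09 on the disomic arrays and 9.80, 9.72 and 9.74 on the Ts1Cje arrays (M = -0.30, standard error 0.07, moderated t = -4.33). Its brightest probe set had 10.48, 9.82 and 10.19 on the disomic arrays and 9.88, 9.64 and 9.78 on the Ts1Cje arrays, so that disomic replicate 2 lay among the Ts1Cje arrays, with M = -0.39 and a wider error of 0.20. Without disomic replicate 2 its moderated t was -4.22. Another 3 probe sets name Hnrnpa1 together with another gene and were not used. Hnrnpm, a regulator of alternative exons in epithelial cells, had 11.56, 11.59 and 11.68 on the disomic arrays and 11.46, 11.33 and 10.98 on the Ts1Cje arrays (M = -0.35, standard error 0.14). Hnrnph2, a close relative of Hnrnpf, had 11.41, 11.77 and 11.39 on the disomic arrays and 11.39, 11.13 and 10.97 on the Ts1Cje arrays, with M = -0.36 (standard error 0.17). In both genes all Ts1Cje arrays lay below all disomic arrays, in Hnrnph2 by a margin that vanishes in the rounding. M was -0.22 for Hnrnpm without Ts1Cje replicate 3 and -0.24 for Hnrnph2 without disomic replicate 2. Hnrnpa2b1, which is also known to sort RNAs for transport, had 13.34, 13.38 and 13.55 on the disomic arrays and 13.44, 13.14 and 13.19 on the Ts1Cje arrays by its brightest probe set, with overlapping groups. Its 4 probe sets lay between -0.34 and -0.17, and the brightest between -0.26 and -0.11 with single arrays left out.
Without Ts1Cje replicate 2, Ts1Cje replicate 3, disomic replicate 1 or disomic replicate 3 the Hnrnpf probe set had a moderated t between -3.95 and -3.49, and the Hnrnpa1 probe set one between -3.95 and -3.29 without any single array other than disomic replicate 2. With array weights the moderated t of the latter was -3.86. The 5 probe sets of Hnrnpu ran from -0.40 to 0.34 and the 4 of Hnrnpr from -0.20 to 0.42, with overlapping groups throughout.

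The tissue regulators showed no common direction, with 4 of 9 genes below 0 and a median M of 0.01. Mbnl2, a muscleblind protein that promotes mature splicing patterns in brain, was the member with a higher probe set past a moderated t of 4. On 1433754_at it had 9.93, 9.86 and 10.10 on the disomic arrays and 10.38, 10.24 and 10.27 on the Ts1Cje arrays. The Ts1Cje values were all above the disomic ones, with M = 0.34 (standard error 0.08, fold change 1.26, moderated t = 4.16). The brightest probe set of Mbnl2 had M = 0.02 and the remaining expressed ones M = -0.08 and M = 0.17. The call was lost without any single array other than disomic replicate 3, with a moderated t between 3.16 and 3.72. Mbnl1, its paralogue, had 10.23, 9.89 and 10.48 on the disomic arrays and 10.46, 10.37 and 10.43 on the Ts1Cje arrays, with M = 0.22 (standard error 0.17) and disomic replicate 3 above every Ts1Cje array. M was 0.063 without disomic replicate 2 and 0.36 without disomic replicate 3.
The polypyrimidine tract binding proteins had overlapping groups by their brightest probe sets. M was -0.08 for Ptbp1, -0.29 for Ptbp2 (standard error 0.28) and 0.01 for Ptbp3. Rbfox2, which binds UGCAUG-type motifs next to regulated exons, had 5.54, 5.35 and 5.44 on the disomic arrays and 5.38, 5.38 and 4.90 on the Ts1Cje arrays (M = -0.22), close to the limit for expression, and M was -0.063 without Ts1Cje replicate 3. Khdrbs1, an RNA-binding protein of the STAR family, had 13.10, 13.10 and 13.02 on the disomic arrays and 13.13, 12.99 and 12.84 on the Ts1Cje arrays by its brightest probe set, with M = -0.09 (-0.014 without Ts1Cje replicate 3) and overlapping groups. It had 6 expressed probe sets between -0.33 and -0.05, and Celf1 had 3 between 0.11 and 0.22.

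Qk, the quaking protein of glia and neural stem cells, was the 1 member whose probe sets separated the genotypes in opposite directions. Of the 3607 genes with several expressed probe sets, 0.277% did so. Qk has 7 expressed probe sets, and the chance of such a split grows with their number, which this share does not take into account. Qk is known to make transcripts with different ends that encode proteins of different location. On 1425597_a_at the disomic arrays had 10.61, 10.81 and 11.03 and the Ts1Cje arrays 11.04, 11.39 and 11.62, an M of 0.54 (standard error 0.20). On 1429735_at the disomic arrays had 9.47, 9.34 and 9.84 and the Ts1Cje arrays 9.15, 8.92 and 9.05, an M of -0.51 (standard error 0.16). The nearest arrays of the genotypes were almost level on the first, with 11.03 against 11.04, and further apart on the second.
The log2 difference of the first over the second was 1.14, 1.47 and 1.19 on the disomic arrays and 1.89, 2.47 and 2.57 on the Ts1Cje arrays, given as a description only, since probe sets chosen because one was higher and the other lower cannot give differences that overlap. The brightest probe set of Qk, 1417073_a_at, had 13.97, 14.03 and 14.22 on the disomic and 14.17, 14.15 and 14.14 on the Ts1Cje arrays, with M = 0.08 (0.154 with a moderated t of 6.70 without disomic replicate 3). Against it, 1429735_at was lower by a difference in M of 0.59 (standard error 0.15, moderated t = 3.96 in limma, adjusted p = 0.98 over all pairs), just inside the limit of 4. A neighbouring probe set that the annotation ties to the same transcript record, 1429736_at, had M = 0.05. Another Qk probe set, 1429318_a_at, had M = -0.45. Its difference in M from the brightest was 0.53 (moderated t = 3.14 in limma), and the differences of the genotypes did not overlap.

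**Figure D2:**
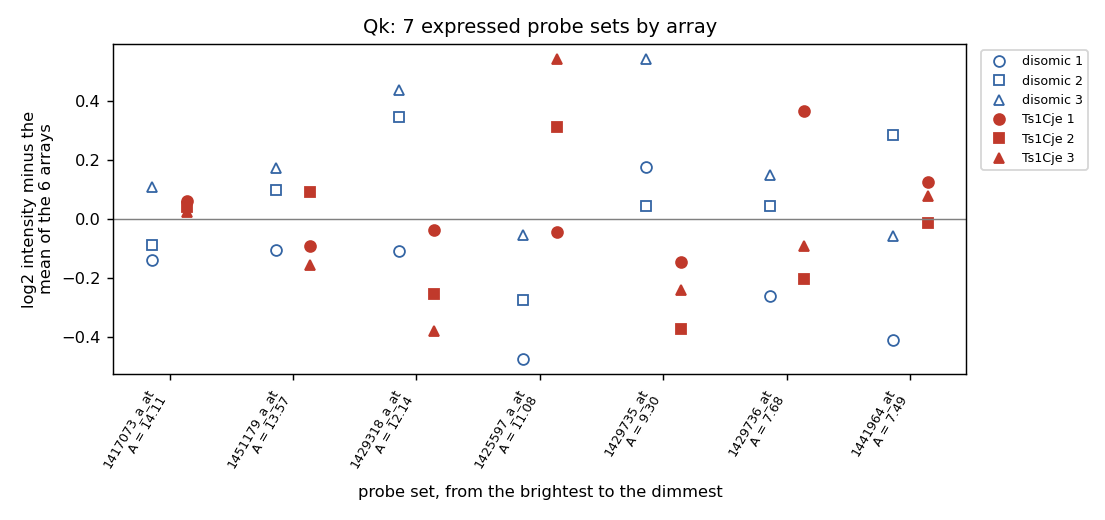
Log2 intensity of the 7 expressed probe sets of Qk on each array, less the mean of the 6 arrays (y axis), with open blue points for disomic and filled red points for Ts1Cje. The Ts1Cje points lie above the disomic ones on 1425597_a_at and below them on 1429735_at.

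Of the kinases Clk1 and Clk4, which phosphorylate SR proteins and lie in a feedback loop with their own splicing, Clk1 varied widely between cultures. Clk1 had 9.62, 9.67 and 11.24 on the disomic arrays and 10.52, 10.78 and 10.28 on the Ts1Cje arrays, so that disomic replicate 3 was the highest of all and the other disomic arrays the lowest (M = 0.35, standard error 0.53). Without disomic replicate 3, M was 0.88 with a moderated t past 4, and without disomic replicate 1 it was 0.074. The brightest probe set of Clk4 had 8.35, 8.21 and 8.80 on the disomic arrays and 8.51, 8.36 and 8.07 on the Ts1Cje arrays. Here too disomic replicate 3 was the highest array, and M was -0.14, which turned to 0.035 without that array. The other Clk4 probe set had M = -0.48. The Luc7-like genes, whose yeast relative belongs to the particle that recognises the donor splice site, had brightest probe sets at M = -0.01 for Luc7l, -0.21 for Luc7l2 and 0.01 for Luc7l3. Luc7l2 had 11.14, 11.05 and 11.98 on the disomic arrays and 11.13, 11.02 and 11.38 on the Ts1Cje arrays, again highest on disomic replicate 3, without which M was 0.080. A dimmer Luc7l probe set, 1428255_at, had 7.19, 6.79 and 7.36 on the disomic arrays and 6.33, 6.46 and 6.73 on the Ts1Cje arrays, lower without overlap (M = -0.61, standard error 0.20). The other Luc7l probe set tied to the same transcript record had M = 0.02.

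Rbm39, a coactivator of transcription and splicing factor related to the large subunit of U2AF, had the lowest M of all members, and its probe sets disagreed with each other. On 1439316_at, whose A of 5.58 is close to the limit for expression, the disomic arrays had 5.94, 6.28 and 6.11 and the Ts1Cje arrays 5.14, 4.90 and 5.12. All Ts1Cje values were lower, with M = -1.06 (standard error 0.12, fold change 0.480, moderated t = -8.89), and the moderated t stayed past 4 in all 10 alternative fits. On 1446147_at the disomic arrays had 9.23, 9.79 and 9.16 and the Ts1Cje arrays 8.65, 8.18 and 8.17, again without overlap, with M = -1.06 and a moderated t of -4.34.
The brightest probe set, 1426671_a_at, had 10.51, 10.44 and 10.83 on the disomic arrays and 10.53, 10.49 and 10.47 on the Ts1Cje arrays. Apart from disomic replicate 3 these values were level, with M = -0.10 (standard error 0.12). The difference between this probe set and 1439316_at was itself larger in Ts1Cje by 0.96 (standard error 0.19, moderated t = 5.20 in limma, adjusted p = 0.98 over 5663 pairs), and this was the 1 pair of probe sets of any member past 4, against 0.283% of all pairs. There were 5 such pairs without Ts1Cje replicate 1, and 2 without disomic replicate 2, disomic replicate 3 or Ts1Cje replicate 3. The share of all pairs past 4 in these fits is not given here, so these counts cannot be set against it. Calls of single probe sets also rose without Ts1Cje replicate 1, to 2.79% of all expressed probe sets lower, against 0.812%. All 11 expressed probe sets of Rbm39 were below 0. On 6 of them all Ts1Cje arrays lay below all disomic arrays, with M from -1.21 to -0.85, and the other 5 lay between -0.44 and -0.10.
On those 6 probe sets Ts1Cje replicate 1 was the highest of its group throughout. Probe sets tied to the same transcript record did not always go together, since 3 of them had M values of -1.15, -0.44 and -0.15. The moderated t of 1446147_at was -3.87 without disomic replicate 1, -3.31 without Ts1Cje replicate 2 and -3.32 without Ts1Cje replicate 3.

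**Figure D3:**
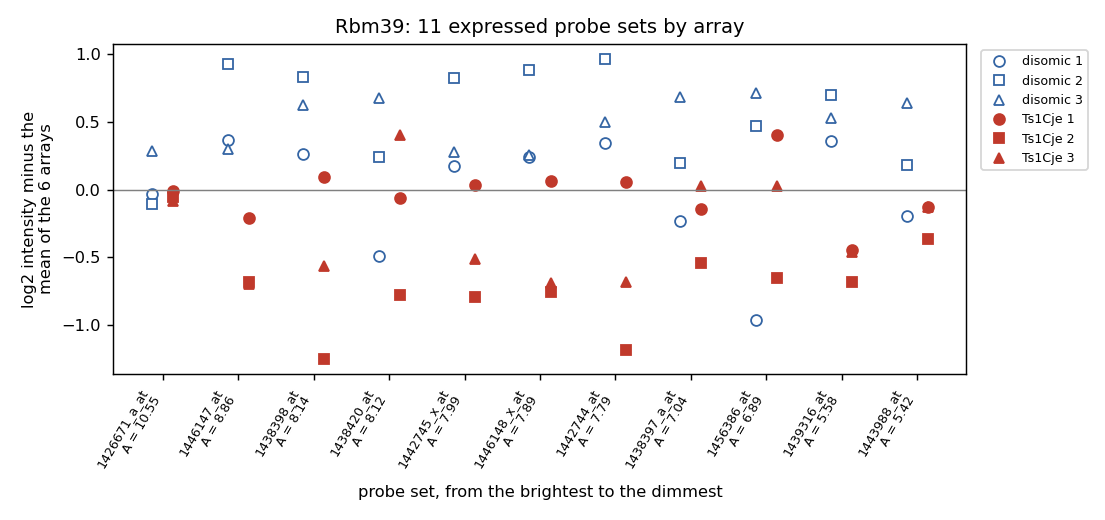
Log2 intensity of the 11 expressed probe sets of Rbm39 on each array, less the mean of the 6 arrays (y axis), with open blue points for disomic and filled red points for Ts1Cje. The groups separate on 6 probe sets and overlap on the brightest at the left, whose M is -0.10.

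The promoters of Rbm39, Hnrnpf, Hnrnpa1 and Mbnl2 are shown because these are the 4 members with a probe set past the limit, in either direction. They run from 250 bases before to 50 after the start furthest upstream in RefSeq (GRCm38.p6), written in lower case with matches on either strand to CCAAT (the CCAAT box), TTTNNCGC (E2F type), CCGGAAG (ETS type) or TATAAA (the TATA box) in capitals.
Rbm39 promoter, chr2:156180189-156180488, minus strand: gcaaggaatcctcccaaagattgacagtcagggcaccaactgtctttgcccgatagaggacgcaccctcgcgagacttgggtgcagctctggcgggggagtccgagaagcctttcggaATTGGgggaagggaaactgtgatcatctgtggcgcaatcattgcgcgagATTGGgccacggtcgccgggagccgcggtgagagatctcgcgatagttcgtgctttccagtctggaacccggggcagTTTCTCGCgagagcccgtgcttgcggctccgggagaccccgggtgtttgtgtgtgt
Hnrnpf promoter, chr6:117900090-117900389, plus strand: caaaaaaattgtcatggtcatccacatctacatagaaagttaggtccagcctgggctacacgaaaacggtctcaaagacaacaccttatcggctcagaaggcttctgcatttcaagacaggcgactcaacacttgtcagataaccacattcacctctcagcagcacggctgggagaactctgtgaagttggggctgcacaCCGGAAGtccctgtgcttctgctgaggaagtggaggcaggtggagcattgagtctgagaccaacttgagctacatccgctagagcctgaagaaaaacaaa
Hnrnpa1 promoter, chr15:103240147-103240446, plus strand: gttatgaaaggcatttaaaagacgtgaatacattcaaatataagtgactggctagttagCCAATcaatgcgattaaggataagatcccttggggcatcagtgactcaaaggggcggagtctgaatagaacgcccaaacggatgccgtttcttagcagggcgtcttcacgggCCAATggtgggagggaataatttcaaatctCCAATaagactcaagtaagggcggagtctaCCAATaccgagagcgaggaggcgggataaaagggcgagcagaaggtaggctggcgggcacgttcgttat
Mbnl2 promoter, chr14:120275419-120275718, plus strand: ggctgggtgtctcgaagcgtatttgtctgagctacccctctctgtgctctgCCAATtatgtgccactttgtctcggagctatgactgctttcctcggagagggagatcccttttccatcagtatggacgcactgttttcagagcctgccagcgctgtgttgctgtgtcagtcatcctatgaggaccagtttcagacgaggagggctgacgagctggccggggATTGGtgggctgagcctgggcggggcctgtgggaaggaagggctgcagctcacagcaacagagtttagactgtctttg
Hnrnpa1 held 4 CCAAT boxes, Mbnl2 held 2, and Rbm39 held 2 and the 1 E2F type match of these promoters. Hnrnpf, for which RefSeq lists 4 starts, held no CCAAT box and the 1 CCGGAAG match, and TATAAA was in none of the 4 windows. Among the 35 member genes with a promoter in the table, CCAAT occurred in 20 (57.1%), against 37.4% of all 32851 promoters of this length, and TTTNNCGC in 6 (17.1%), against 5.17%. The CCGGAAG match stood in 5 (14.3%), against 8.86%, and TATAAA in 5 (14.3%), against 13.6%. The comparison was not tested, since the 32851 windows include several starts for some genes and the member windows 1 start each.

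By the range of M within a gene, disagreement between probe sets was wide over the members as a set. By sign it was near that of all genes. Of the 29 member genes with several expressed probe sets, 14 (48.3%) had M on both sides of 0, against 40.7% of all such genes. The median range of M within a gene was 0.35, against 0.19. The widest ranges were 1.11 in Rbm39, 1.04 in Qk and 0.90 in Srsf3. Member genes have up to 11 expressed probe sets, and both a range and the chance of M on both sides of 0 grow with their number. Each brightest probe set was therefore also set against every other one of its gene. The differences of the 3 Ts1Cje arrays did not overlap with those of the disomic arrays on 17 of 89 member pairs (19.1%), against 9.22% of the 5663 pairs on the array, and on 13 of 79 (16.5%) with Rbm39 left out. Pairs of a gene share their brightest probe set.

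Array by array, the classes did not separate alike. The mean deviation of the 14 hnRNP genes from their own means was 0.10, 0.02 and 0.11 on the disomic arrays and 0.02, -0.08 and -0.17 on the Ts1Cje arrays. That of the 9 SR genes was 0.10, 0.07 and 0.14 on the disomic and 0.08, -0.10 and -0.29 on the Ts1Cje arrays. In both classes Ts1Cje replicate 3 was the lowest, and Ts1Cje replicate 1 lay at the level of the lowest disomic array. The markers of proliferating cells gave 0.31, 0.17 and 0.40 on the disomic arrays and 0.08, -0.57 and -0.39 on the Ts1Cje arrays, where Ts1Cje replicate 1 again was the highest of its group, but replicate 2 the lowest. The class of Clk kinases, Luc7-like genes and Rbm39 followed disomic replicate 3 instead, which stood at 0.50 against -0.24 to 0.05 on every other array.

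**Figure D4:**
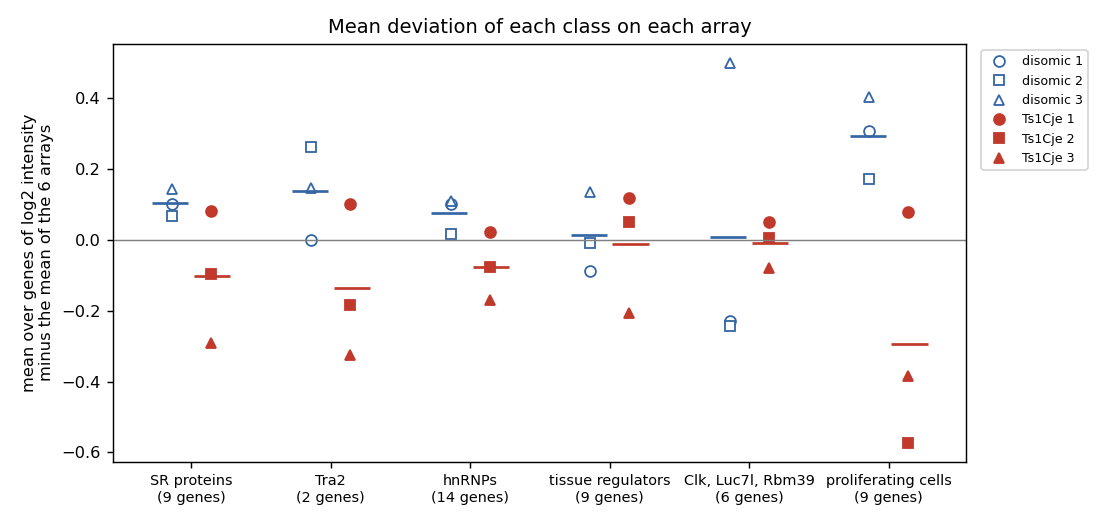
Mean over genes of the log2 intensity less the mean of the 6 arrays (y axis) for 5 classes of splicing regulators and for 9 markers of proliferating cells, by brightest probe set. Points are arrays and lines are means of 3 arrays, and Ts1Cje replicate 3 is the lowest array in every class of regulators except the Clk, Luc7l and Rbm39 class, where disomic replicate 2 is.

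A wider list of splicing genes, written for this comparison, held 60 more symbols, of which 46 genes were expressed on 138 probe sets. A moderated t past 4 was reached by 4 probe sets with lower signal (2.9%) and 3 with higher signal (2.17%), against the 0.812% and 0.965% above. Of the 3 higher, 2 were of trisomic genes. Without the trisomic genes, 4 of 130 probe sets (3.08%) were lower and 1 (0.769%) higher. None of the 138 passed the adjusted p of 0.05 in limma. In the same fit, 10 lower and 6 higher had an unadjusted p under 0.05, against 2.88% and 3.3% of all expressed probe sets. Of these 6, 3 were of trisomic genes. The count of 7 was 11 without Ts1Cje replicate 1, where 2.79% of all expressed probe sets were called lower and 2.0% higher. Over the 43 genes outside the trisomic segment 29 (67.4%) had an M below 0, against 46.1% of all expressed genes. Their median M was -0.06, against 0.02. Large values went the other way, with 2 of the 130 probe sets below an M of -0.58 and 6 above 0.58, up to 1.21. Of all 16371 expressed probe sets, 415 were below and 330 above these limits.
The 3 trisomic genes of the list were all above 0. Son, a large nuclear speckle protein needed for the splicing of weak introns, had 9.24, 9.13 and 9.12 on the disomic arrays and 9.88, 9.79 and 9.69 on the Ts1Cje arrays with 1455634_at. The groups lay well apart, with M = 0.62 (standard error 0.06, fold change 1.54, moderated t = 9.88), and the other 3 expressed probe sets had M between 0.44 and 0.65. Dyrk1a, a kinase of nuclear speckles that can phosphorylate SR proteins, had 7.47, 7.50 and 7.59 on the disomic arrays and 7.86, 7.95 and 7.64 on the Ts1Cje arrays by its brightest probe set, higher without overlap (M = 0.30, standard error 0.10), and M = 0.30 and M = 0.38 with overlap by its others. Without Ts1Cje replicate 3 the moderated t of its brightest probe set was 6.83 and that of the dimmest 7.10. Scaf4, an SR-related factor at the polymerase tail, had 7.41, 7.16 and 7.99 on the disomic arrays and 7.87, 7.99 and 8.40 on the Ts1Cje arrays, with M = 0.57 (standard error 0.28) and disomic replicate 3 among the Ts1Cje arrays. Of the other Son probe sets, 1437924_at had 5.85, 6.07 and 5.87 on the disomic arrays and 6.19, 6.44 and 6.48 on the Ts1Cje arrays and no overlap. Its moderated t was 4.02, and lay between 3.04 and 3.17 without disomic replicate 1, disomic replicate 3, Ts1Cje replicate 2 or Ts1Cje replicate 3. It lay between 3.80 and 3.92 with cyclic loess normalization, array weights or a prior variance that follows intensity.
Outside the segment, Clk2, the third Clk kinase, stood lower, with 7.91, 7.87 and 7.78 on the disomic arrays and 7.21, 7.44 and 7.29 on the Ts1Cje arrays (M = -0.54, standard error 0.07, moderated t = -7.26). Tial1, a binder of U-rich sequence downstream of donor sites, had 10.05, 9.93 and 10.08 on the disomic arrays and 9.57, 9.61 and 9.62 on the Ts1Cje arrays with 1421148_a_at (M = -0.42, standard error 0.05). A further 2 probe sets of Tial1 were lower without overlap, with M = -0.31 and M = -0.28, while the brightest had M = -0.05 with overlap. Elavl3, a neuronal RNA-binding protein, was higher, with 6.89, 7.12 and 6.94 on the disomic arrays and 7.82, 7.85 and 7.60 on the Ts1Cje arrays on 1455484_at (M = 0.77, standard error 0.10), and its other expressed probe set had M = 0.58 without overlap. For these 3 probe sets and for 1455634_at of Son the moderated t stayed past 4 in each of the 10 alternative fits.
Rnps1, a component of the exon junction complex, had 2 probe sets of the _x design just past the limit, while the remaining 3 overlapped. The brightest had 12.90, 12.80 and 12.88 on the disomic arrays and 12.65, 12.73 and 12.68 on the Ts1Cje arrays (M = -0.17). The other had 11.81, 11.65 and 11.71 on the disomic arrays and 11.50, 11.51 and 11.57 on the Ts1Cje arrays (M = -0.20). The moderated t of both lay inside the limit, between -3.85 and -3.12, without disomic replicate 3, Ts1Cje replicate 1 or Ts1Cje replicate 3. The brightest was also inside it without disomic replicate 1 (-3.87), and the other without Ts1Cje replicate 2 (-3.15). With a prior variance that follows intensity they were at -3.86 and -3.83, and the other was at -3.88 with cyclic loess normalization and -3.99 with array weights.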

How the data were processed

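Total RNA from 3 Ts1Cje and 3 disomic neurosphere cultures was amplified, labelled and hybridised to Affymetrix mouse whole-genome arrays. The authors deposited log2 intensities per probe set made with gcRMA (version not given in the sources used here), which corrects background by probe base composition and normalizes across arrays. It sets dim signals to a floor, so that M of dim probe sets can be understated, and it was not repeated. Values ran from 2.23 to 15.89, and the number of arrays limits the precision.

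All 45037 non-control probe sets were fitted in limma 3.58.1 (R 4.3.3) with genotype as the only term and two-sided moderated t, and p-values were adjusted by Benjamini and Hochberg over all of them. The limits, A above 5 and a moderated t of 4, follow the methods of the study. Differences between the brightest and each other expressed probe set of a gene were fitted in the same way over all pairs. The study describes its cultures as pairs of littermates, but no source used here says that a replicate number marks a pair. Same-numbered arrays did not deviate together (correlations -0.17, -0.03 and 0.13), so the numbers were not used as a block. Genes were named from the platform annotation (34945 probe sets with 1 symbol, 932 with several, 9160 with none). The members and lists were chosen with earlier results of these data known. Genes given in full were those past the limit, up to 4 per class with the largest moderated t by brightest probe set, probe sets of differing pairs, and trisomic genes of the wider list; Srsf10, Srsf11, Luc7l, the dimmer probe sets of Qk and the other members named were added after their values were seen. The fits were checked on simulated arrays. Tables were made with Python 3.11.15, pandas 2.3.3 and matplotlib 3.10.9.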

Additional observations from a re-analysis of the deposited data

How the results depend on the processing

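The count of 4 lower member probe sets past a moderated t of 4 was 7 with the replicate number as a block and between 1 and 15 when single arrays were left out. The count of 1 higher was 3 with the block and between 0 and 4. The 1 member pair became 2 with cyclic loess normalization, with array weights and with no filter, and ranged from 1 to 5 over arrays left out. The share of all pairs in these fits is not given here, so these pair counts cannot be set against it. For the wider list, the count of 7 was 17 with the replicate block, 4 with a prior variance that follows intensity, and between 7 and 11 over arrays left out. With the block, 3.56% of all expressed probe sets were called lower and 3.05% higher. The median M over the 40 genes, -0.09, ran from -0.16 to -0.02 over arrays left out, and the 30 genes below 0 from 22 to 34. The block left this median, the 30 genes and the 1 pair as they were, ended the calls of 1446147_at of Rbm39 and of both Rnps1 probe sets, and put past the limit Srsf9 (moderated t = -6.16), 1427333_s_at of Scaf4 (4.62) and 1420952_at of Son (8.95). Over arrays left out, the brightest probe sets ran from -0.26 to 0.035 for Clk4, from -0.17 to 0.020 for Rbm39 and from -0.38 to 0.080 for Luc7l2, above 0 without disomic replicate 3 in each case. Of 410 values for named probe sets under the alternatives, 352 kept direction and side of the limit, 45 lost it, 10 gained it and 3 turned. Where not stated, the cause was not tested. Under cyclic loess the median M of all expressed probe sets was 0.00, and 147 were lower and 150 higher. The design of 3 against 3 arrays cannot give an exact permutation p below 0.1, and 30 of the 159 member probe sets had A of 5 or less.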
